A study of Mus musculus with 9 samples.

Results

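Mouse embryonic stem cells in which Fam60a had been knocked down were compared with cells of the same line in which Sin3a had been knocked down. The comparison took in 6 of the 9 RNA-seq libraries of the series, 3 per knockdown, chosen by their titles and paired by replicate number, and the 3 control libraries entered the fit for the estimate of spread. The cells were E14, a feeder-independent embryonic stem cell line, grown on gelatin in medium with serum and the cytokine LIF. Stable knockdown came from lentiviral pLKO.1 vectors expressing a short hairpin RNA against Fam60a or against Sin3a, and the remaining 3 libraries came from cells carrying a scrambled hairpin. All 3 groups shared the parental line, the vector backbone and the puromycin selection, and untransduced cells were not analysed here. The hairpin sequences are not given in the sources used here. Total RNA was sequenced, and the values are gene-level read counts, given here as CPM (counts per 1000000 reads). Levels of single genes are scaled to the library total adjusted by TMM, edgeR's scaling factor for each library. Summed levels of gene lists and floors of 3 counts are scaled to the unadjusted library total, unless stated.

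SIN3A is the scaffold of a corepressor complex that brings the histone deacetylases HDAC1 and HDAC2 to chromatin, where removal of acetyl groups from histones is linked to lower transcription. FAM60A, also called SINHCAF, is a smaller subunit of the same complex with no deacetylase activity of its own. In embryonic stem cells the complex acts together with factors of the pluripotency network. Differences below are log2 of the Fam60a knockdown over the Sin3a knockdown, so a positive value means a higher level in the Fam60a knockdown. A gene is called where its adjusted p in edgeR's quasi-likelihood test, with replicate number as a block, was under 0.05.

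Each target was low in its own knockdown. Fam60a, listed under its current symbol Sinhcaf, stood at 5.59, 6.54 and 5.06 CPM in the Fam60a knockdown, at 13.9, 14.3 and 18.7 CPM in the Sin3a knockdown and at 13.4, 14 and 13.1 CPM in the control. Its mean in the Fam60a knockdown was lower than the control (adjusted p = 0.0269), at 42.5% of the control mean. Sin3a stood at 227, 216 and 207 CPM in the Fam60a knockdown, at 131, 136 and 110.5 CPM in the Sin3a knockdown and at 311, 281 and 268 CPM in the control, a level in the Sin3a knockdown of 43.8% of the control (adjusted p = 0.0026). Neither gene's knockdown libraries overlapped between the groups, with differences of -1.42 ± 0.22 (SE, adjusted p = 0.0213) for Fam60a and 0.79 ± 0.09 (SE, adjusted p = 0.0124) for Sin3a. The libraries held 2607872 to 7674887 counted reads, and the shallowest was Sin3a knockdown replicate 3, with 90 reads from mitochondrially encoded genes against 6268 to 7118 in each of the other 8. Its mean correlation with the other libraries of its group was 0.885, and the other 8 libraries had 0.935 to 0.981 with theirs. Counts of called genes are therefore given with and without this library.

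Of 14465 genes tested, 672 were called (4.65%), 468 of them higher in the Fam60a knockdown (3.24%) and 204 lower (1.41%). A 2-fold or larger difference was fitted for 502 of the 672. Without Sin3a knockdown replicate 3, 5321 of 14735 genes were called (36.1%), 2855 higher (19.4%) and 2466 lower (16.7%). Those calls included all 672 of the 9-library fit, each with the same sign. The direction was also the same in each of the 3 replicate pairs for all 672, against 6310 of all 14465 genes tested. The 3 libraries of each knockdown did not overlap for 653 of the 672, against 25.5% of all genes tested. The calls were made from these same pairs, so both counts are a description. Without the replicate block 443 genes were called (3.06%), 316 higher (2.18%) and 127 lower (0.878%), and 411 of these were among the 672. A fit on the 6 knockdown libraries alone called 0 genes by edgeR with the block and without it, with 1728 and 1760 genes at an unadjusted p under 0.05 and a lowest adjusted p of 0.178 and 0.0614. Leaving out Fam60a replicate 1 or 2, Sin3a replicate 1 or 2, or control replicate 1 or 2, with Sin3a replicate 3 kept, left 0 genes called by edgeR in each case, with 1981 to 3140 genes at an unadjusted p under 0.05. Leaving out replicate 3 of the Fam60a knockdown gave 195 calls and leaving out control replicate 3 gave 341. DESeq2 called 892 genes higher and 621 lower, and a correction for GC content with the block 878 higher and 694 lower.

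**Figure D1:**
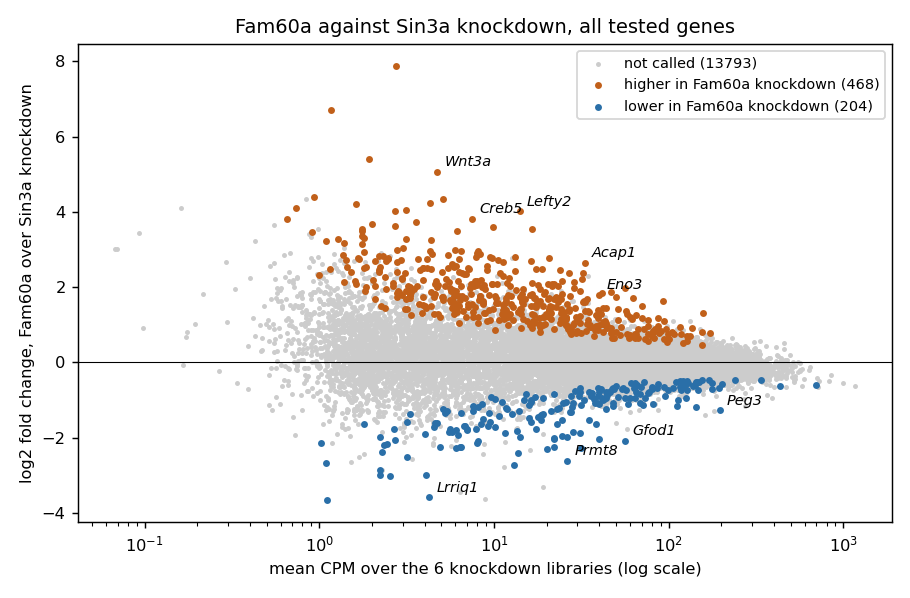
Mean level (CPM, log axis) and log2 difference of the Fam60a over the Sin3a knockdown for the genes tested, with called genes coloured by direction. Labels name the 4 marker genes Creb5, Lefty2, Gfod1 and Peg3, and also Wnt3a, Acap1, Eno3, Lrriq1 and Prmt8. The 468 genes called higher had a median level of 12.0 CPM and the 204 called lower one of 30.0 CPM, against 46.9 CPM over all genes tested.

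The control means were set beside those of the knockdowns, with Sin3a replicate 3 included. For 254 of the 468 genes higher in the Fam60a knockdown the control mean lay between those of the knockdowns, for 180 it lay above both, and for 34 below both. For the 204 lower genes it lay between in 111, below both in 76 and above both in 17. Over all 14465 genes the control mean was between in 4770, above both in 5174 and below both in 4521. The median difference from the control for the 468 higher genes was 0.17 for the Fam60a knockdown and -1.34 for the Sin3a knockdown. For the 204 lower genes it was -0.20 and 0.84. The Fam60a knockdown was the nearer of the 2 to the control for 363 of the 468 and for 141 of the 204, against 9587 of all 14465 genes. These values share their libraries with the calls and are a description, with no test. They were not computed without Sin3a replicate 3, and its part in them was not tested.

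Lefty2, one of the 4 marker genes, encodes a secreted antagonist of the growth factor Nodal and lies at chr1:180893108-180899103 (GENCODE M21, GRCm38). It read 36.0, 18.6 and 25.0 CPM in the Fam60a knockdown, 1.98, 1.67 and 0.812 CPM in the Sin3a knockdown and 105, 72.3 and 81.5 CPM in the control. The 3 groups did not overlap: the control was highest, the Fam60a knockdown intermediate and the Sin3a knockdown close to the floor. That floor, set by 3 counts, was 0.391 to 1.15 CPM across libraries on the unadjusted library totals. The difference between the knockdowns was 4.02 ± 0.25 (SE, adjusted p = 0.00631). Each knockdown was lower than the control, with differences of -1.73 (adjusted p = 0.0106) for the Fam60a knockdown and -5.75 (adjusted p = 0.000783) for the Sin3a knockdown. Lefty1 had the same order, at 14.7, 9.24 and 18.2 CPM, 1.83, 1.11 and 2.84 CPM and 74.1, 64.8 and 70.8 CPM in the Fam60a knockdown, Sin3a knockdown and control, with a difference between the knockdowns of 2.91 ± 0.28 (SE, adjusted p = 0.0109). Lefty1 and Lefty2 are close paralogs, and how reads that match both were assigned is not given in the sources used here, so the split between them is uncertain. With all 9 libraries 3.24% of all genes were called higher and 1.41% lower. Of the 22 tested genes of the Nodal and Lefty list, Lefty1 and Lefty2 were higher in the Fam60a knockdown and 1 was lower. The lower gene was Smad3, which encodes a signal transducer of the Nodal and activin receptors, at 36.9, 35.8 and 28.8 CPM against 61.6, 63.5 and 50.8 CPM (difference -0.79 ± 0.11 SE, adjusted p = 0.0197). The list's median difference was -0.04, against 0.03 over all genes, and without Sin3a replicate 3, 7 members were higher and 4 lower. In that fit 19.4% of all genes were called higher and 16.7% lower.

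Creb5, a transcription factor of the CREB family at chr6:53287270-53700376, read 10.9, 18.1 and 13.3 CPM in the Fam60a knockdown and 0.762, 1.30 and 0.812 CPM in the Sin3a knockdown, with 2.44, 4.63 and 3.72 CPM in the control. The control libraries lay between the knockdowns with no overlap. The difference was 3.82 ± 0.26 (SE, adjusted p = 0.00631), and without Sin3a replicate 3 it was 3.78 (adjusted p = 4.33e-06). Against the control the values were 1.97 (adjusted p = 0.0106) for the Fam60a knockdown and -1.85 (adjusted p = 0.00917) for the Sin3a knockdown, so the gene rose in one knockdown and fell in the other.

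Gfod1 encodes a protein with an oxidoreductase-like domain and lies at chr13:43195245-43304172. It read 21.8, 23.6 and 18.2 CPM in the Fam60a knockdown, 85.1, 81.5 and 106 CPM in the Sin3a knockdown and 55.1, 51.6 and 58.0 CPM in the control. Here too the control lay between non-overlapping knockdowns, but in the reverse order. The difference was -2.09 ± 0.17 (SE, adjusted p = 0.00722), made up of -1.37 (adjusted p = 0.0135) for the Fam60a knockdown and 0.72 (adjusted p = 0.0302) for the Sin3a knockdown against the control. Peg3, an imprinted zinc-finger gene expressed from the paternal allele, lies at chr7:6703892-6730431. It read 105, 120.5 and 117 CPM in the Fam60a knockdown and 242, 276 and 316 CPM in the Sin3a knockdown, a difference of -1.28 ± 0.10 (SE, adjusted p = 0.00722). The control, at 97.9, 112 and 128 CPM, overlapped the Fam60a knockdown, and the differences from it were 0.03 (adjusted p = 0.957) for the Fam60a knockdown and 1.30 (adjusted p = 0.00258) for the Sin3a knockdown. Peg3 was the 1 gene called among the 34 tested imprinted genes, against 4.65% of all genes called. Without Sin3a replicate 3, 6 imprinted genes were higher and 6 lower of 35, against 19.4% and 16.7% of all genes.

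**Figure D2:**
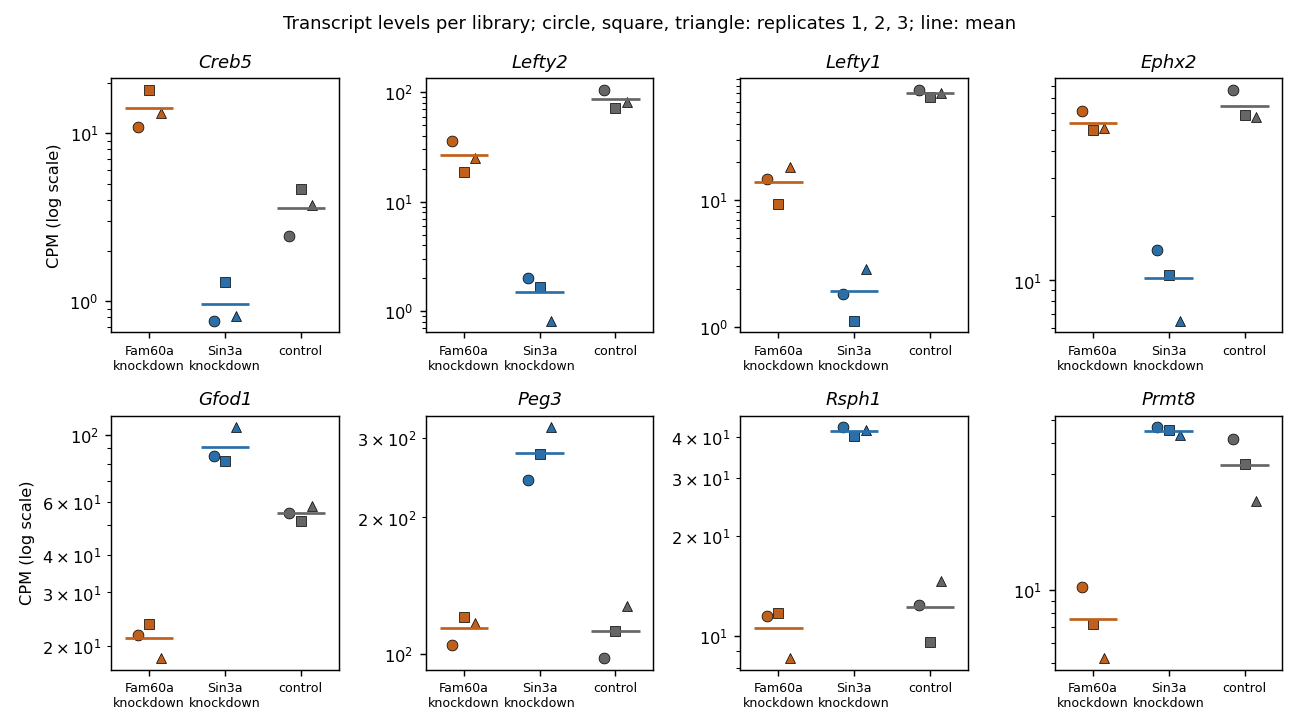
Level in each library (CPM, log axis) of Creb5, Lefty2, Lefty1, Ephx2, Gfod1, Peg3, Rsph1 and Prmt8, with a point per library (circle, square and triangle for replicates 1, 2 and 3) and a line at each group's mean. Lefty2 shows 3 separate levels, and Creb5 and Gfod1 have the control between the knockdowns, in opposite orders.

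Several genes higher in the Fam60a knockdown were close to absent in the Sin3a knockdown. Ly6c1, a GPI-anchored surface antigen of the Ly6 family, had 113 reads over the 3 Fam60a libraries and 0 over the 3 Sin3a libraries, which is at least 27.0-fold higher when the Sin3a group is set at 3 counts. The control had 4 reads of Ly6c1. The Fam60a knockdown was called higher than the control (adjusted p = 0.0274), and the Sin3a knockdown was not called against it (adjusted p = 0.288). Near-identical neighbours of Ly6c1 in the Ly6 cluster make its own share of these reads uncertain. Wnt3a, a ligand of canonical Wnt signalling, read 7.85, 13.7 and 6.01 CPM in the Fam60a knockdown, 0.305, 0.371 and 0 CPM in the Sin3a knockdown and 4.24, 4.63 and 2.09 CPM in the control. Its difference was 5.07 ± 0.42 (SE, adjusted p = 0.00722), from 1.32 (adjusted p = 0.0382) for the Fam60a knockdown and -3.75 (adjusted p = 0.00545) for the Sin3a knockdown against the control. Osm, the cytokine oncostatin M of the LIF family, read 7.25, 7.57 and 9.96 CPM against 0.610, 0.371 and 0 CPM and 2.77, 3.47 and 3.43 CPM in the control, a difference of 4.23 ± 0.47 (SE, adjusted p = 0.0124). Loxl4, a lysyl oxidase that crosslinks collagen, read 8.01, 13.6 and 7.91 CPM against 0.762, 0.371 and 0 CPM, a difference of 4.35 ± 0.49 (SE, adjusted p = 0.0124), with the control at 0.815, 1.59 and 0.894 CPM. In these 3 genes the knockdowns did not overlap. In Sin3a replicate 3 a level of 0 allows up to 1.22 CPM, the level of 3 reads on the adjusted library total.

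Ido2, an enzyme of tryptophan breakdown, read 14.5, 19.9 and 20.9 CPM in the Fam60a knockdown, 1.68, 1.49 and 0.812 CPM in the Sin3a knockdown and 1.95, 1.59 and 4.47 CPM in the control (difference 3.60 ± 0.42 SE, adjusted p = 0.0124). The Fam60a libraries were the high ones, and the control overlapped the Sin3a knockdown. Spata31d1b, one of a family of similar testis genes whose reads may be shared among copies, had the opposite arrangement, with 34.3, 37.1 and 20.6 CPM, 3.35, 2.79 and 1.22 CPM and 30.5, 33.8 and 29.1 CPM in the Fam60a knockdown, Sin3a knockdown and control (difference 3.56 ± 0.28 SE, adjusted p = 0.00722). Its low group was the Sin3a knockdown. The other genes chosen for the size of their difference were Pglyrp1, a peptidoglycan recognition protein (4.05, adjusted p = 0.0124), Pde6a, a photoreceptor phosphodiesterase subunit (4.01, adjusted p = 0.02), Tmem173, the innate immune adaptor STING (3.72, adjusted p = 0.0232), and Adam33, a membrane metalloprotease (3.64, adjusted p = 0.0158). Mean levels of these 4 were 5.08 to 6.67 CPM in the Fam60a knockdown and 0.225 to 0.451 CPM in the Sin3a knockdown.

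Among genes with at least 20 CPM, those with the smallest adjusted p that were higher in the Fam60a knockdown were Pde4a, Eno3, Nos3, Acap1, Ephx2, Slc17a9, Nlrc4 and Gli1. Pde4a, which degrades cyclic AMP, read 63.0, 68.9 and 63.1 CPM in the Fam60a knockdown, 18.3, 18.4 and 17.1 CPM in the Sin3a knockdown and 61.4, 58.4 and 56.8 CPM in the control, a difference between the knockdowns of 1.86 ± 0.12 (SE, adjusted p = 0.00631). The Sin3a libraries were the low ones, and the Fam60a knockdown's difference from the control was 0.14 (adjusted p = 0.615). The same arrangement held for the muscle enolase Eno3, the endothelial nitric oxide synthase Nos3, the Arf GTPase-activating protein Acap1, the soluble epoxide hydrolase Ephx2 and the vesicular nucleotide transporter Slc17a9. Their differences between the knockdowns were 1.80, 1.87, 2.65, 2.38 and 1.75, and each was called as lower in the Sin3a knockdown than in the control and not called between the Fam60a knockdown and the control. Acap1, for instance, read 57.9, 67.9 and 44.7 CPM, 7.47, 9.28 and 11 CPM and 62.1, 65.9 and 50.5 CPM in the Fam60a knockdown, Sin3a knockdown and control (difference 2.65 ± 0.22 SE, adjusted p = 0.00722).

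Nlrc4, an inflammasome adaptor, and Gli1, a transcription factor and readout of Hedgehog signalling, departed from that arrangement. Nlrc4 read 34.7, 38.9 and 62.3 CPM, 7.17, 7.24 and 11.8 CPM and 13.4, 14 and 15.0 CPM in the Fam60a knockdown, Sin3a knockdown and control. Its high group was the Fam60a knockdown, with a difference of 2.37 ± 0.20 (SE, adjusted p = 0.00746) between the knockdowns and of 1.63 (adjusted p = 0.0121) for the Fam60a knockdown and -0.74 (adjusted p = 0.0546) for the Sin3a knockdown against the control. Gli1 read 42.0, 56.8 and 50.6 CPM, 18.4, 21.4 and 19.09 CPM and 132, 154 and 145 CPM, so the control was highest and the groups did not overlap. It fell in each knockdown, with -1.53 (adjusted p = 0.00931) for the Fam60a knockdown and -2.86 (adjusted p = 0.000783) for the Sin3a knockdown, and the difference between the knockdowns was 1.33 ± 0.12 (SE, adjusted p = 0.0081).

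Among the lower genes with at least 20 CPM, Map1b, a microtubule-associated protein of neurons, read 78.1, 93.4 and 88.7 CPM in the Fam60a knockdown, 180.5, 225 and 192 CPM in the Sin3a knockdown and 153, 194 and 179.8 CPM in the control. Here the Fam60a knockdown was the low group, with a difference of -1.20 ± 0.09 (SE, adjusted p = 0.00722) from the Sin3a knockdown and -1.02 (adjusted p = 0.00931) from the control. Prmt8, a brain-enriched arginine methyltransferase, read 10.3, 7.19 and 5.22 CPM, 46.5, 45.5 and 43.1 CPM and 41.7, 33.0 and 23.1 CPM in the same order of groups, a difference between the knockdowns of -2.61 ± 0.21 (SE, adjusted p = 0.00722). The Fam60a libraries were again the low ones. Plxdc2, a plexin-domain membrane protein, read 7.55, 11.5 and 7.43 CPM against 35.8, 46.8 and 23.6 CPM, with 7.82, 13.3 and 9.09 CPM in the control, so its Sin3a knockdown was the high group (difference -2.00 ± 0.21 SE, adjusted p = 0.0113). Plch1, a phospholipase C, read 8.61, 9.62 and 6.96 CPM against 39.9, 45.9 and 20.7 CPM (difference -2.04 ± 0.21 SE, adjusted p = 0.0113), with the control between at 16.6, 17.9 and 13.3 CPM. Arhgap39, a GTPase-activating protein, differed by -0.90 ± 0.10 (SE, adjusted p = 0.0122), with 70.2, 69.0 and 59.6 CPM against 127, 129.8 and 115 CPM and the control between at 89.6, 88.5 and 76.7 CPM.

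The genes lower in the Fam60a knockdown that were chosen for size included Lef1, a transcription factor that acts with beta-catenin, at 3.02, 1.41 and 6.64 CPM in the Fam60a knockdown, 20.3, 15.6 and 31.3 CPM in the Sin3a knockdown and 16.3, 12.0 and 22.8 CPM in the control (difference -2.72 ± 0.28 SE, adjusted p = 0.0122). The Fam60a libraries were low, and the other 2 groups overlapped. Armcx2, an X-linked armadillo-repeat gene, was also low in the Fam60a libraries, at 15.0, 13.3 and 4.74 CPM against 65.1, 60.5 and 30.1 CPM in the Sin3a knockdown and 61.6, 61.9 and 62.6 CPM in the control (difference -2.26 ± 0.33 SE, adjusted p = 0.0203). Its Sin3a replicate 3 was below the other Sin3a libraries. Lrriq1, which encodes a leucine-rich-repeat protein, read 1.06, 0.898 and 0 CPM against 8.99, 10.6 and 4.06 CPM, with 0.489, 1.45 and 0.894 CPM in the control (difference -3.58 ± 0.58 SE, adjusted p = 0.0256). Its high group was the Sin3a knockdown. The synaptic vesicle protein Svop and the intermediate filament protein synemin (Synm) also had their high values there, with differences of -2.40 (adjusted p = 0.0326) and -2.31 (adjusted p = 0.0399). In Svop the Sin3a libraries read 18.1, 18.2 and 32.5 CPM and in Synm 19.5, 25.4 and 56.9 CPM, replicate 3 the highest in each. Without that replicate the differences were -1.81 (adjusted p = 5.84e-05) and -1.66 (adjusted p = 4.41e-05). The remaining members were the transcription factor Egr4 (-2.85), the AMPA receptor partner Cacng4 (-2.27), and Efcab1, Ribc2, Cfap65 and Cfap61 (-2.99, -3.02, -2.99 and -2.39), which encode proteins of motile cilia. Efcab1 and Cfap65 missed the threshold without the block, at adjusted p of 0.0528 and 0.0769.

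The largest share of calls in a list was among genes of the motile cilium, the microtubule-based organelle that beats, with 13 of 39 tested genes lower in the Fam60a knockdown and 4 higher. All genes stood at 1.41% lower and 3.24% higher. Without Sin3a replicate 3, 23 of 41 were lower and 6 higher, against 16.7% and 19.4% of all genes. Without the block 10 were lower and 4 higher, against 0.878% and 2.18%. The list's median difference was -0.91, against 0.03 over all genes. The 13 lower genes were Foxj1, Rsph1, Rsph4a, Rsph9, Cfap44, Cfap52, Cfap61, Cfap65, Cfap70, Wdr78, Ccdc40, Ccdc65 and Ccdc81. Foxj1, the transcription factor that switches on motile cilium genes, read 10.3, 13.0 and 11.9 CPM in the Fam60a knockdown, 27.7, 33.1 and 73.1 CPM in the Sin3a knockdown and 3.42, 3.47 and 2.09 CPM in the control. Its level was above the control in both knockdowns and highest in Sin3a replicate 3. The difference between the knockdowns was -1.84 ± 0.38 (SE, adjusted p = 0.0473), or -1.32 (adjusted p = 0.000155) without that library, and the values against the control were 1.94 (adjusted p = 0.0474) for the Fam60a knockdown and 3.79 (adjusted p = 0.00503) for the Sin3a knockdown.

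Rsph1, a radial spoke head protein, read 11.5, 11.7 and 8.54 CPM in the Fam60a knockdown, 42.7, 40.3 and 41.8 CPM in the Sin3a knockdown and 12.4, 9.54 and 14.6 CPM in the control (difference -1.97 ± 0.23 SE, adjusted p = 0.0124). The Fam60a knockdown overlapped the control and the Sin3a knockdown was high. The radial spoke gene Rsph4a differed by -1.97 ± 0.35 (SE, adjusted p = 0.0332), with mean levels of 5.71 CPM in the Fam60a knockdown, 22.6 in the Sin3a knockdown and 7.53 in the control. The dynein regulatory complex gene Ccdc65 differed by -1.69 ± 0.26 (SE, adjusted p = 0.0213) and the axonemal gene Cfap52 by -2.10 ± 0.23 (SE, adjusted p = 0.0124). Ccdc40, needed for the axonemal ruler, differed by -1.06 ± 0.18 (SE, adjusted p = 0.0281), and there the control mean of 27.2 CPM was above the Sin3a knockdown's 22.0. The list did not move one way. Dnah8, Dnah1, Hydin and Tekt2 were higher in the Fam60a knockdown. Dnah8, an axonemal dynein heavy chain, read 191, 267 and 211 CPM against 83.1, 106 and 79.2 CPM, with 162, 211 and 122 CPM in the control (difference 1.32 ± 0.13 SE, adjusted p = 0.0113). Dnah1, another heavy chain, read 9.97, 10.9 and 10.9 CPM against 2.29, 1.86 and 1.62 CPM, and the control at 9.77, 13.9 and 9.83 CPM overlapped the Fam60a knockdown (difference 2.42 ± 0.27 SE, adjusted p = 0.0124). The Rfx transcription factors Rfx1, Rfx2 and Rfx3, regulators of cilium genes, had differences of -0.14, -0.03 and -0.51 with adjusted p of 0.494, 0.907 and 0.215.

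**Figure D3:**
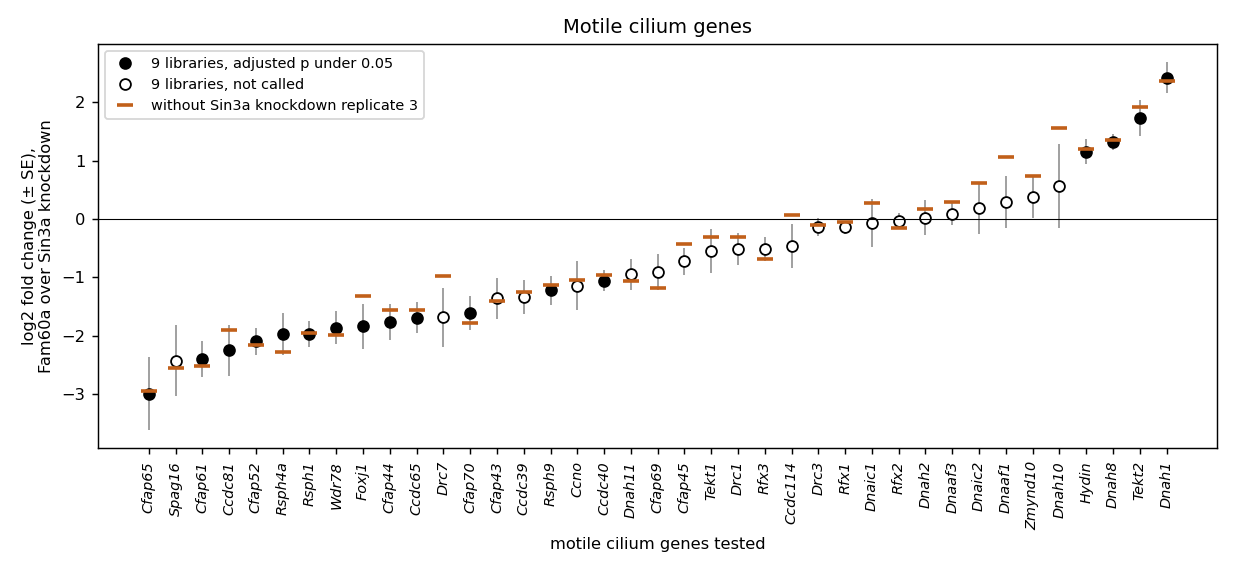
Log2 difference of the Fam60a over the Sin3a knockdown with its standard error for the 39 tested motile cilium genes, fitted with all libraries (circles, filled where called) and without Sin3a knockdown replicate 3 (short lines). Values run from -2.99 for Cfap65 to 2.42 for Dnah1. Dnah1, Tekt2, Dnah8 and Hydin are the called genes above 0, and the other heavy chains tested include Dnah11 at -0.95 and Dnah2 at 0.02.

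To show what the promoters of called genes look like, the 250 bases before the start site are printed for 2 genes of each direction, from RefSeq (GRCm38.p6), 5′ to 3′ on the gene's own strand. They were taken from the called genes chosen by the naming rule. Among those with at least 20 CPM, a single listed start site and no annotated exon in the window, they have the largest differences. Capitals mark each CpG, the dinucleotide at which cytosine is methylated in mammals. The higher genes are Eno3 (chr11:70656926-70657175, plus strand, 3 CpG) and Sema7a (chr9:57939862-57940111, plus strand, 17 CpG), and the lower genes are Armcx2 (chrX:134809222-134809471, minus strand, 4 CpG) and Taf7l (chrX:134476491-134476740, minus strand, 14 CpG).
Eno3: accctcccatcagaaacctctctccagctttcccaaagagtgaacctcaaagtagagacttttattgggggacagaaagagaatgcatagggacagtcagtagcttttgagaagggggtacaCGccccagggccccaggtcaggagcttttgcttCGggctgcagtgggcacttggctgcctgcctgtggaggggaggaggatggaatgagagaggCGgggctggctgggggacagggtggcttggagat
Sema7a: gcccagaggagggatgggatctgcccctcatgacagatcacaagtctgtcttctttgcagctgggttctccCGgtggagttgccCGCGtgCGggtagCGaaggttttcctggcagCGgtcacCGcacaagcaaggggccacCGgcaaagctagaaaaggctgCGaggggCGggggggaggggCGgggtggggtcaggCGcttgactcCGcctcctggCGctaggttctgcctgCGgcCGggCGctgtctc
Armcx2: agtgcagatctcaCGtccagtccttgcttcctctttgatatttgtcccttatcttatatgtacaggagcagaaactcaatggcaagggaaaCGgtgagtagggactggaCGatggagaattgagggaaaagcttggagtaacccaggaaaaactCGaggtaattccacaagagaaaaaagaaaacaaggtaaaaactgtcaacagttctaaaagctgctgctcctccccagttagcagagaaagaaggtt
Taf7l: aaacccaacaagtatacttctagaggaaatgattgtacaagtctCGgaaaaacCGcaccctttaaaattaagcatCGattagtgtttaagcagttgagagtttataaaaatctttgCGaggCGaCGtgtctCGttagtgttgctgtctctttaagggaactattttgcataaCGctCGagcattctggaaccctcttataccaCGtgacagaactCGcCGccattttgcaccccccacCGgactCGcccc

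Each direction holds a promoter poor in CpG and a richer one. CpG were counted over windows of 300 bases around the start and averaged over the listed starts of each gene. Their median number was 11.3 for the 329 matched genes called higher, 20.8 for the 154 called lower and 20 for 10826 matched genes of all tested. Sema7a, a membrane-anchored semaphorin, read 50.8, 61.6 and 50.6 CPM in the Fam60a knockdown against 20.7, 24.3 and 22.7 CPM, with 34.4, 36.6 and 24.0 CPM in the control (difference 1.27 ± 0.17 SE, adjusted p = 0.0166). Taf7l, a germ-cell paralog of a TFIID subunit, read 23.9, 16.4 and 11.9 CPM against 42.4, 41.0 and 32.9 CPM and 10.1, 10.3 and 8.49 CPM in the control (difference -1.19 ± 0.20 SE, adjusted p = 0.0268). The motif GTTGCC, a core of the sites of Rfx factors, was searched on both strands. A gene was counted if any of its listed promoters held the motif, so genes with more starts had more chances of a match. By that count 15.0% of all matched genes tested had it, and 40.6% of the motile cilium list (13 of 32 matched). Of the matched cilium genes, 1 of 7 called lower and 2 of 4 called higher had it. Among matched genes called higher 14% had it, and among those called lower 22.1%. CACGTG, the E-box of Myc and its partners, was counted likewise, in 11.7%, 13.4% and 13.6% of matched genes of all tested, called higher and called lower. A match is a description of these letters and not of binding.

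GC content moved with the direction of the calls and with Sin3a replicate 3. The median GC content of the longest transcript was 54.1% for genes called higher, 49.8% for those called lower and 50.2% for all tested. Across 5 bins of equal size from low to high GC content, 13, 45, 93, 153 and 159 genes were called higher and 27, 52, 47, 46 and 32 lower. The median difference within replicate pair 1 went from -0.10 in the lowest bin to 0.15 in the highest, and in pair 2 from -0.11 to 0.19. In pair 3, which holds the shallow Sin3a library, it went the other way, from 0.83 to -0.50. Without that library the medians were 53.9%, 47.6% and 50.2%. The part of GC content in the results was not tested beyond the correction, under which 87 of the 88 called genes chosen by the naming rule were called.

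**Figure D4:**
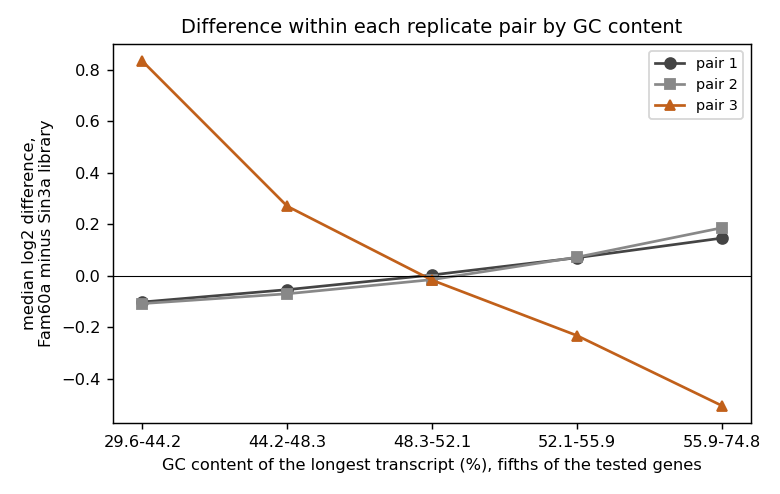
Median log2 difference of the Fam60a over the Sin3a knockdown within each replicate pair, over 5 bins of equal size of the genes tested, by GC content of the longest transcript (percent). Pairs 1 and 2 rise from -0.10 and -0.11 to 0.15 and 0.19, and pair 3 falls from 0.83 to -0.50.

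Of 33 tested genes that encode subunits of the complex or its known partners, 1 was higher in the Fam60a knockdown and 3 were lower. The shares over all genes were 3.24% and 1.41%. The higher gene was Sin3a itself and the first of the lower ones Fam60a, as described. The other 2 lower genes were Mxd4, a MAX partner that recruits SIN3, at 51.4, 45.3 and 50.3 CPM against 81.6, 70.2 and 115 CPM (difference -0.84 ± 0.17 SE, adjusted p = 0.0456), and Bbx, an HMG-box protein, at 92.9, 122 and 120.5 CPM against 193, 205 and 154 CPM (difference -0.73 ± 0.15 SE, adjusted p = 0.0484). Both had control libraries below the Sin3a knockdown, at 35.5, 33.4 and 32.5 CPM for Mxd4 and 83.2, 96.0 and 100.1 CPM for Bbx. The catalytic subunits were not called. Hdac1 had a difference of -0.09 (adjusted p = 0.785) and Hdac2 one of -0.09 (adjusted p = 0.616). Sin3b, the paralogous scaffold, read 116, 121 and 128 CPM in the Fam60a knockdown and 116, 117 and 247 CPM in the Sin3a knockdown, where replicate 3 stood apart from its group (difference -0.32 ± 0.23 SE, adjusted p = 0.445). The difference without that library was 0.04 (adjusted p = 0.601). Without it 5 of the 33 genes were higher and 13 lower, against 19.4% and 16.7% of all genes.

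Calls among genes of the pluripotent state with all libraries are set beside the share of all genes called, which was 4.65%. Of 21 general pluripotency genes 0 were called by edgeR, with 2 at an unadjusted p under 0.05 and 0 called by DESeq2. Without Sin3a replicate 3, 2 of the 21 were higher and 4 lower, of 25 naive genes 4 were higher and 5 lower, and of 19 primed genes 3 were higher and 6 lower, against 36.1% of all genes in either direction. Pou5f1, the gene of OCT4, read 134, 122 and 141 CPM in the Fam60a knockdown and 131, 152 and 316 CPM in the Sin3a knockdown (difference -0.51 ± 0.26 SE, adjusted p = 0.306). Its replicate 3 value in the Sin3a knockdown was more than any other library, and without it the difference was -0.10 (adjusted p = 0.356). Sox2 and Nanog had differences of -0.14 ± 0.11 (SE, adjusted p = 0.491) and -0.05 ± 0.16 (SE, adjusted p = 0.863), and Esrrb and Klf4 of 0.04 ± 0.11 (SE, adjusted p = 0.856) and -0.10 ± 0.18 (SE, adjusted p = 0.749). When Sin3a replicate 3 was left out, Nanog and Klf4 were called lower, at -0.22 (adjusted p = 0.0299) and -0.31 (adjusted p = 0.00343), while Sox2 and Esrrb had -0.10 (adjusted p = 0.334) and -0.04 (adjusted p = 0.687). Among 25 naive pluripotency genes 1 was called, the FGF receptor gene Fgfr4, at 85.9, 114 and 123 CPM against 44.4, 53.3 and 82.5 CPM and 18.9, 33.4 and 37.4 CPM in the control (difference 0.88 ± 0.16 SE, adjusted p = 0.0328; adjusted p = 0.174 without the block). It rose against the control in each knockdown, with 1.89 (adjusted p = 0.00931) for the Fam60a knockdown and 1.01 (adjusted p = 0.011) for the Sin3a knockdown. Prdm14, a repressor that guards the naive state, read 33.5, 26.2 and 17.6 CPM against 43.6, 41.4 and 24.4 CPM and was not called with all libraries (difference -0.51 ± 0.18 SE, adjusted p = 0.165). It was called lower when Sin3a replicate 3 was left out, at -0.61 (adjusted p = 0.00588). Among 19 primed pluripotency genes Lef1 was lower, as above, and the zinc-finger gene Zic2 higher, at 15.0, 11.2 and 13.0 CPM against 8.08, 5.94 and 7.72 CPM with 42.5, 35.0 and 35.5 CPM in the control (difference 0.85 ± 0.17 SE, adjusted p = 0.045; adjusted p = 0.0825 without the block).

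Markers of other lineages are set beside all genes tested. Of all genes 3.24% were called higher and 1.41% lower, or 19.4% and 16.7% without Sin3a replicate 3. Of 17 tested primitive streak and mesendoderm genes, Wnt3a, Cdx1 and Cdx4 were higher in the Fam60a knockdown and Kdr lower. Without the block Cdx4 and Kdr missed the threshold, at adjusted p of 0.0639 and 0.0844, and without Sin3a replicate 3, 6 of 18 were higher and 1 lower. Cdx1, a caudal-type homeobox gene, read 19.2, 25.3 and 13.8 CPM against 6.40, 6.13 and 4.06 CPM, and Cdx4, its paralog, 3.17, 3.59 and 4.59 CPM against 0.915, 0.557 and 1.62 CPM. Their differences were 1.78 ± 0.28 (SE, adjusted p = 0.0227) and 1.94 ± 0.36 (SE, adjusted p = 0.0347), with no overlap of the knockdowns. Kdr, a VEGF receptor of early mesoderm, read 18, 25.0 and 13.0 CPM against 48.8, 52.4 and 53.2 CPM (difference -1.53 ± 0.31 SE, adjusted p = 0.0449). Of 16 neuroectoderm genes Pax6, an eye and brain regulator, was higher, at 8.01, 7.70 and 11.7 CPM against 2.74, 2.41 and 1.62 CPM with 16.3, 14.5 and 16.7 CPM in the control (difference 1.90 ± 0.29 SE, adjusted p = 0.0207). Of 14 tested Hox genes Hoxb13 and Hoxc13 were higher, with differences of 2.15 (adjusted p = 0.0473) and 0.91 (adjusted p = 0.0372). Both missed the threshold without the block, at adjusted p of 0.0623 and 0.124.

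Of 23 tested primitive endoderm genes 0 were called by edgeR, with 6 at an unadjusted p under 0.05 and 2 called by DESeq2, and their median was -0.26. Their summed level was 4852 to 7203 CPM in the Fam60a knockdown, 5474 to 10662 in the Sin3a knockdown and 2756 to 5952 in the control, with 0 of the 26 listed genes at 0 in all libraries. Gata6, a regulator of that lineage, read 195, 171 and 211 CPM in the Fam60a knockdown and 208, 195 and 221 CPM in the Sin3a knockdown (difference -0.12 ± 0.24 SE, adjusted p = 0.784), and rose against the control in each (1.26, adjusted p = 0.0361, for the Fam60a knockdown and 1.38, adjusted p = 0.0153, for the Sin3a knockdown). Of 18 trophectoderm genes 0 were called by edgeR, with 4 at an unadjusted p under 0.05 and 2 by DESeq2. Without Sin3a replicate 3, 8 of 19 were higher and 0 lower, against 19.4% and 16.7% of all genes. Their summed level was 500.1 to 605 CPM in the Fam60a knockdown, 357 to 729 in the Sin3a knockdown and 269.6 to 459 in the control. In bulk RNA, more cells of a type and more RNA per cell cannot be told apart.

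Signalling genes beyond Nodal were called in both directions. Of 44 tested Wnt pathway genes Wnt3a, Cdx1 and Cdx4 were higher and Lef1 and Tcf7l2 lower. Tcf7l2, a partner of beta-catenin like Lef1, read 11.6, 13.3 and 14.2 CPM in the Fam60a knockdown, 25.9, 27.1 and 22.7 CPM in the Sin3a knockdown and 27.5, 27.0 and 26.4 CPM in the control (difference -0.96 ± 0.17 SE, adjusted p = 0.0318). The called ligand and the 2 caudal genes stood higher and the 2 partners of beta-catenin lower. Of the 44, 12 were higher and 7 lower without Sin3a replicate 3, against 19.4% and 16.7% of all genes. Of 26 BMP and TGF-beta genes 3 were higher and 0 lower, against 3.24% and 1.41% of all genes, and without Sin3a replicate 3, 8 of 27 were higher and 4 lower. Tgfbr2, the type II TGF-beta receptor, read 92.9, 79.8 and 106 CPM against 45.4, 38.1 and 72.7 CPM and 19.2, 17.5 and 29.5 CPM in the control (difference 0.89 ± 0.14 SE, adjusted p = 0.0255; adjusted p = 0.149 without the block). It was above the control in each knockdown (2.10, adjusted p = 0.00931, for the Fam60a knockdown and 1.22, adjusted p = 0.00556, for the Sin3a knockdown). Ltbp3, which tethers latent TGF-beta, read 9.52, 14.5 and 16.0 CPM in the Fam60a knockdown against 1.98, 2.79 and 6.09 CPM, with 7.82, 12.0 and 12.2 CPM in the control (difference 2.00 ± 0.28 SE, adjusted p = 0.0184). Of 31 FGF and ERK genes Fgfr4 was the 1 called.

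Of 36 tested collagens, laminins and lysyl oxidases 3 were higher in the Fam60a knockdown and 0 lower, against 3.24% and 1.41% of all genes, and the list's median difference was -0.26. When Sin3a replicate 3 was left out, 15 of 37 were higher and 6 lower, and the median was 0.39. In that fit 19.4% of all genes were called higher and 16.7% lower. Besides Loxl4 these were Lama3, a laminin chain (1.16 ± 0.19 SE, adjusted p = 0.0245; adjusted p = 0.118 without the block), and Col6a3, a collagen VI chain with 65 reads over the Fam60a libraries and 2 over the Sin3a libraries, a depth-corrected ratio of 23.3 (95% interval 6.19 to 196, counting error only). Of 24 cadherins Cdh13 and Cdhr1 were higher, and without Sin3a replicate 3, 11 of 25 were higher and 2 lower. Cdhr1, a photoreceptor cadherin, read 8.46, 10.5 and 5.06 CPM against 1.37, 0.743 and 0 CPM, with 29.6, 25.9 and 25.9 CPM in the control (difference 3.25 ± 0.50 SE, adjusted p = 0.0221), and Cdh13, an anchored cadherin, differed by 2.96 ± 0.33 (SE, adjusted p = 0.0124). The cadherin list's median was 0.19, or 0.12 with Fat2, which had 0 reads in the Sin3a knockdown, set at its bound. Of 41 epithelial junction genes 3 were higher and 0 lower. Without Sin3a replicate 3, 15 were higher and 2 lower, against the 19.4% and 16.7% of all genes in that fit. Tjp3, a tight junction scaffold, read 38.1, 39.1 and 30.0 CPM against 6.71, 10.0 and 8.94 CPM, with 46.1, 43.1 and 42.5 CPM in the control (difference 2.08 ± 0.20 SE, adjusted p = 0.0109). The membrane protease Prss8 and the epithelial transcription factor Grhl2 differed by 2.38 ± 0.23 (SE, adjusted p = 0.0103) and 1.11 ± 0.20 (SE, adjusted p = 0.0348), and Grhl2 had an adjusted p of 0.0634 without the block. For Tjp3 and Grhl2 the Sin3a knockdown was the low group, while Cdhr1 was lower than the control in both knockdowns, with -1.80 (adjusted p = 0.0356) for the Fam60a knockdown and -5.05 (adjusted p = 0.00386) for the Sin3a knockdown.

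Of 14 tested fibroblast markers Thy1, Pdgfrb and S100a4 were higher in the Fam60a knockdown and 0 lower, with a list median of -0.02 and a lowest value of -3.64. In the fit without Sin3a replicate 3, 4 were higher and 2 lower. Thy1, a surface glycoprotein also found on embryonic stem cells, read 19.8, 26.7 and 28.8 CPM against 8.38, 8.17 and 4.06 CPM, with 21.8, 23.7 and 28.5 CPM in the control (difference 1.79 ± 0.30 SE, adjusted p = 0.0294). Pdgfrb, a PDGF receptor, differed by 1.31 ± 0.25 (SE, adjusted p = 0.0402), with an adjusted p of 0.0897 without the block, and S100a4 had 48 reads against 0, at least 11.5-fold higher with the Sin3a group at 3 counts. The control had 4 reads of S100a4. The Fam60a knockdown was called higher than the control (adjusted p = 0.0329), and the Sin3a knockdown was not called against it (adjusted p = 0.175). The summed level of the 24 listed fibroblast genes was 743 to 859 CPM in the Fam60a knockdown, 775 to 942 in the Sin3a knockdown and 488 to 671 in the control, and the ranges of the knockdowns overlapped. In this list 0 members were at 0 in all libraries. Of 50 axon guidance genes 4 were higher and 2 lower, without the block 4 and 0, and without Sin3a replicate 3, 14 and 11. Over all genes the shares were 3.24% higher and 1.41% lower, or 19.4% and 16.7% without that library. Besides Sema7a, the higher ones were Sema3f (2.10, adjusted p = 0.0128), a secreted semaphorin, the ephrin Efna2 (1.55, adjusted p = 0.0207) and Sema4a, a membrane semaphorin (0.75, adjusted p = 0.0397). The lower ones were the ephrin Efna3, at 41.5, 37.5 and 52.5 CPM against 87.5, 82.6 and 108 CPM and 19.7, 21.0 and 35.3 CPM in the control (difference -1.09 ± 0.14 SE, adjusted p = 0.0162; adjusted p = 0.0547 without the block), and the Slit receptor Robo1 (-0.70 ± 0.12 SE, adjusted p = 0.0309). Robo1 was the 1 gene among those named whose knockdown libraries overlapped while it was called, at 56.9, 80.7 and 44.0 CPM against 107, 126 and 63.8 CPM, and its adjusted p without the block was 0.251.

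Of 37 tested p53 targets 0 were higher and 2 lower, and without Sin3a replicate 3, 4 were higher and 17 lower. The share of all genes was 3.24% higher and 1.41% lower, or 19.4% and 16.7% without that library. Without the block neither of the 2 was called, at adjusted p of 0.0903 for Plk2 and 0.0557 for Ddit4l. Plk2, a stress-induced polo-like kinase, read 99.5, 101 and 124 CPM in the Fam60a knockdown, 148, 160.4 and 189.7 CPM in the Sin3a knockdown and 47.6, 47.7 and 65.1 CPM in the control (difference -0.62 ± 0.10 SE, adjusted p = 0.0232). Both knockdowns were above the control, the Sin3a knockdown more so, and Ddit4l, an inhibitor of mTOR signalling, had the same order (difference -0.68 ± 0.12 SE, adjusted p = 0.0322). Cdkn1a, the gene of the cell cycle inhibitor p21, was not called with all libraries (0.10 ± 0.17 SE, adjusted p = 0.735) and was called higher without Sin3a replicate 3, at 0.30 (adjusted p = 0.0396). Of 24 cyclin and CDK inhibitor genes Ccnd1, which encodes cyclin D1, was lower, at 75.4, 70.7 and 53.9 CPM against 108, 107 and 101 CPM, and the control was highest at 163, 143 and 156 CPM (difference -0.67 ± 0.13 SE, adjusted p = 0.0402). The mitotic phosphatase gene Cdc25b (0.63 ± 0.11 SE, adjusted p = 0.0296; adjusted p = 0.0688 without the block) was the 1 call among 33 G2/M genes, of which 1 was higher and 8 lower without Sin3a replicate 3. Of 35 genes of the Myc network and ribosome biogenesis 1 was lower, Mxd4, and without Sin3a replicate 3, 2 were higher and 16 lower. Of 74 cytosolic ribosomal protein genes Rps15a was higher (0.65 ± 0.12 SE, adjusted p = 0.0336), a gene with many processed copies and an adjusted p of 0.143 without the block. Without Sin3a replicate 3, 24 of the 74 were higher and 1 lower.

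Of 40 tested germline and meiosis genes 0 were higher and 3 lower, Taf7l, Slc25a31 and Rpl10l. Without the block Slc25a31 was the 1 called, with Taf7l and Rpl10l at adjusted p of 0.0549 and 0.0554, and without Sin3a replicate 3, 6 of the 40 were higher and 12 lower. Over all genes the shares were 3.24% higher and 1.41% lower, or 19.4% and 16.7% without that library. Slc25a31, the testis ATP/ADP carrier, read 20.8, 15.8 and 17.7 CPM in the Fam60a knockdown, 41.5, 34.9 and 38.2 CPM in the Sin3a knockdown and 10.8, 7.81 and 12.1 CPM in the control (difference -1.08 ± 0.17 SE, adjusted p = 0.0233). The order from control to Fam60a knockdown to Sin3a knockdown was that of Taf7l. Rpl10l, the testis copy of a ribosomal protein gene, differed by -0.68 ± 0.14 (SE, adjusted p = 0.0422), and reads shared with its parent gene cannot be told apart. Single calls were also made among 30 tested corepressor genes (Trerf1, -0.62 ± 0.13 SE, adjusted p = 0.0463), 40 Polycomb genes (Phf19, 0.61 ± 0.10 SE, adjusted p = 0.0256), 31 genes of the integrated stress response (Nupr1, 1.64 ± 0.33 SE, adjusted p = 0.0449) and 35 glycolysis genes (Eno3). The share of all genes called in either direction was 4.65%, above the share in each of these lists. Without the block Trerf1, Phf19 and Nupr1 missed the threshold, at adjusted p of 0.0634, 0.0868 and 0.0542.

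Itga4, an integrin alpha chain, read 24.5, 27.7 and 14.2 CPM in the Fam60a knockdown, 33.2, 32.5 and 8.53 CPM in the Sin3a knockdown and 0.977, 2.31 and 0.745 CPM in the control. Both knockdowns were above the control without overlap (4.08, adjusted p = 0.00939, for the Fam60a knockdown and 4.13, adjusted p = 0.00311, for the Sin3a knockdown), while the knockdowns overlapped each other (difference -0.05 ± 0.29 SE, adjusted p = 0.925). Tet1, an oxidase of methylated cytosine, read 460.3, 589.9 and 416 CPM in the Fam60a knockdown against 685, 841 and 193 CPM, with the lowest value in Sin3a replicate 3 (difference -0.09 ± 0.36 SE, adjusted p = 0.902). Without that library the Tet1 difference was -0.55 (adjusted p = 1.69e-05).

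In 16 of the 43 lists 0 genes were called by edgeR. At an unadjusted p under 0.05 were 68 of their 355 entries (19.2%, against 22.0% of all genes tested), and DESeq2 called 27. Besides those described they cover retinoic acid, smooth muscle and actin, the 2-cell-like state, G1/S, cholesterol synthesis, oxidative phosphorylation, mitochondrially encoded genes, DNA methylation, integrins, immediate early genes, histones, the Bcl2 family and interferon response. Of 23 interferon and antigen presentation genes 7 had an unadjusted p under 0.05, and their median was 0.40. Without Sin3a replicate 3, 11 were higher and 0 lower, against 19.4% and 16.7% of all genes. The 2-cell-like list had a median of 0.67, with 5 of 21 higher and 1 lower without that library. Mitochondrially encoded genes went from a median of 0.62 to one of -0.19 when it was left out.

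**Figure D5:**
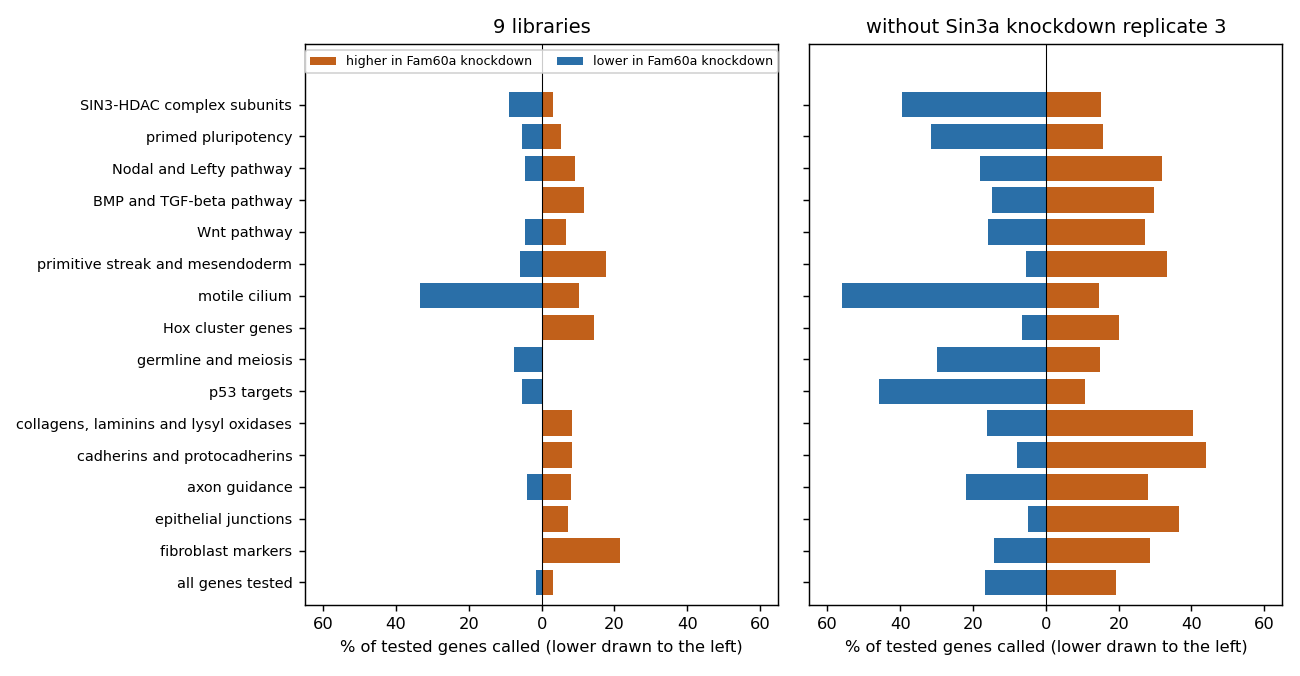
Percent of the tested members of gene lists called higher (to the right) or lower (to the left) in the Fam60a knockdown, with all 9 libraries and without Sin3a knockdown replicate 3. Only lists with 2 or more members called with all 9 libraries are drawn, beside all genes tested. Lists with fewer calls, among them the 16 with 0, are left out. Over all genes tested the shares are 3.24% higher and 1.41% lower with 9 libraries, and 13 of 39 motile cilium genes are lower.

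The 88 called genes chosen by the naming rule kept their sign in every setting in which they were tested. Each was called when Sin3a replicate 3 was left out. That call was a condition of the choice for genes named for size or smallest adjusted p, and all 672 called genes met it. By edgeR 0 of the 88 were called in each of the 6 fits that left out a first or second replicate of any group. Their adjusted p there ran from 0.0501 to 0.281.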

How the data were processed

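RNA-seq libraries of E14 cells were compared, 3 per group. The deposited count tables give whole-number read counts per Ensembl gene, and the authors removed duplicate reads, per the file headers. STAR 2.4.0j, Picard and featureCounts are named in the submitters' processing notes, and the build and annotation are not given in the sources used here. The labels call the replicates biological and the library kit stranded. The control libraries carry the title T2SC and were taken as the scrambled hairpin by elimination.

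Of 37990 genes listed, 32937 matched GENCODE M21 (GRCm38) by identifier and held 99.351 to 99.464% of reads. Genes passing edgeR's expression filter (14465) were fitted with edgeR 4.0.16 (R 4.3.3, limma 3.58.1) by quasi-likelihood with TMM scaling, all 9 libraries and the replicate number as a block, leaving 4 residual degrees of freedom. The biological coefficient of variation was 0.202. P-values were adjusted by Benjamini-Hochberg over all genes tested. The script was tested on simulated data. Same-numbered libraries deviated together, with correlations of 0.178 to 0.622 in 9 of 9 pairs, against -0.448 to 0.113 for different numbers. Between the Fam60a and Sin3a knockdowns alone they were 0.178 to 0.298 in 3 pairs, against -0.242 to 0.064. DESeq2 1.42.0, other scalings, no filter, a loess correction for GC content and leaving out each library were the alternatives. The 95% interval is exact.

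The genes named were the 4 markers and 2 targets, up to 12 per direction with the largest difference at 2 CPM or more, 8 per direction with the smallest adjusted p at 20 CPM or more, up to 3 per list and direction, and a few fixed genes. Those chosen by size or smallest adjusted p had to be protein-coding and called in the same direction with and without Sin3a replicate 3. Their knockdown libraries also had to be without overlap. Genes added outside this rule, chosen after their values were seen, were further called or tested motile cilium genes, Sema4a and Fat2. 1 gene that the rule names is not reported here. The members and the 43 lists were chosen with earlier results of these data known. Intervals and floors of 3 counts cover counting error only, and PCR copies carry no molecular identifiers.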

Additional observations from a re-analysis of the deposited data

How the results depend on the processing

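Leaving out 1 library at a time gave 0 to 5321 called genes, 0 to 2855 higher and 0 to 2466 lower in the Fam60a knockdown. The high end is Sin3a replicate 3. The 0 came without replicate 1 or 2 of any group, where 1981 to 3140 genes had an unadjusted p under 0.05, and 195 and 341 genes were called without replicate 3 of the Fam60a knockdown or the control. The 6 knockdown libraries alone gave 0 called genes, 0 higher and 0 lower, with the replicate block and without it, by edgeR, with 1728 and 1760 genes at an unadjusted p under 0.05. The cause was not tested. Without the replicate block and with all libraries, 443 genes were called, 316 higher and 127 lower, and 65 of the 88 named genes kept their call. Without the block and without Sin3a replicate 3, 2166 were called, 1251 higher and 915 lower.

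DESeq2 called 1513, 892 higher and 621 lower. Correction for GC content with the block called 1572, 878 higher and 694 lower, and without the block 823, of which 326 were lower. RLE scaling gave 656, upper-quartile scaling 627 and no filter on low counts 599, each within 1.5 times of 672. Chosen after seeing the data were the GC correction with the block and without Sin3a replicate 3, which called 5179 genes, 2607 higher and 2572 lower, and a fit without replicate 3 of all groups, which called 6462, 3417 higher and 3045 lower. In none of these settings did a named called gene change sign. Depth limits the low genes. On the unadjusted library totals, 3 counts were 1.15 CPM in Sin3a replicate 3 and 0.391 to 0.544 CPM in the other libraries.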
